A study of Mus musculus with 20 samples.

Results

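Homeobox and paired-box genes encode transcription factors that bind DNA through a homeodomain, a paired domain or both. They were followed here in RNA of adult mouse retina and newborn mouse cortex. Members were taken by gene symbol, as every named gene of the families Hox, Pax, Lhx, Six3 and its relatives, Dlx, Pou, Nkx, Irx, Meis, Pbx, Otx, Emx, Isl, Vsx, Pitx, Msx, Cux, En, Crx and Gbx, apart from Lhx1, Lhx4, Lhx6, Lhx9, Isl2, Otx2, Dlx1, Emx1 and Emx2. The symbols gave 79 members of 9230 named genes, each with a single probe. The annotation gives 2 of the members a different nature, since Dlx6os2 is an RNA transcribed opposite a Dlx gene and Pou2af1 is a coactivator of POU proteins without a homeodomain.

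RNA of C57/B6 adult retina formed one pool, and RNA of Swiss-Webster cortex from postnatal day 1 formed the other. Each pool was run on 5 CodeLink arrays at a first site and on 5 at site 2, which gave 20 arrays in 4 groups. CodeLink arrays have 1 colour and read biotin-labelled RNA bound to short probes. The 5 arrays of a group repeat 1 pool, so p-values measure the spread between arrays and not between animals, and tissue, strain and age cannot be told apart. Intensities have no unit, with array medians from 0.927 to 0.963, and levels of different probes cannot be set against each other.

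A probe was called when limma gave an adjusted p under 0.05 and the tissues differed at least 2-fold. Differences below are retina minus cortex on the log2 scale, with their standard error (SE). All 8 photoreceptor genes measured in the retina list, such as Sag and Gnat1, were called higher in retina at both sites, and 5 of 7 cortical genes, such as Neurod6 and Tbr1, were called lower, while Reln and Eomes were not. Photoreceptor RNA read higher in the first-site cortex arrays: 4 of those 8 genes were called lower at site 2 in cortex, where Gnat1 averaged 0.141 at site 2 and 2.66 at the first site, and its part in the members' values was not tested. The last cortex array of site 2, replicate 5, stood apart, with a correlation of 0.926 with the mean of its group against 0.979 to 0.992 for the other 19 arrays. Where it changed the call of a tissue difference of a member named below, the value without it is given. Differences of uncalled members are mostly given with all arrays, and some moved by over 1.5 times or changed sign without it. At site 2 Msx2 went from -0.44 to -0.19, Nkx2-1 from 0.32 to 0.20 and Six5 from 0.05 to -0.04.

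Homeodomain factors divide the early neural tube into eye, forebrain, midbrain, hindbrain and spinal cord, and many are used again later to fix the identity of single neuron types. Hox factors mark the hindbrain and trunk. Pax6, Six3 and Lhx2 act in the eye field and in the forebrain, Dlx and Nkx2 factors in ventral forebrain, and TALE factors (Meis, Pbx, Irx) bind DNA alone or beside other homeodomain proteins.

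Of the 79 members, 78 had enough values to be tested. The exception was Hoxd3, which read 0.0889 to 0.252 in retina and 0.132 to 0.283 in cortex at the first site and was blank on all 10 arrays of site 2. At the first site 9 members were called higher and 10 lower in retina (11.5% and 12.8% of those tested), and of all 10339 probes tested 11.9% were called higher and 13% lower. At site 2 it was 6 higher and 10 lower (7.69% and 12.8%), against 11.1% and 13.5% of all probes, and after quantile normalization 10 higher and 10 lower. The shares of members called were thus close to those of the whole table. The median difference of the members was -0.06 at the first site and -0.02 at site 2, beside -0.04 and -0.05 over all probes tested. Across both sites 13 members were called the same way (19.8% of all probes), 6 of them higher and 7 lower (7.69% and 8.97% of members, 9.31% and 10.5% of all probes), 9 were called at only 1 site, and 56 at neither. No member was called in opposite directions at the sites.

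**Figure D1:**
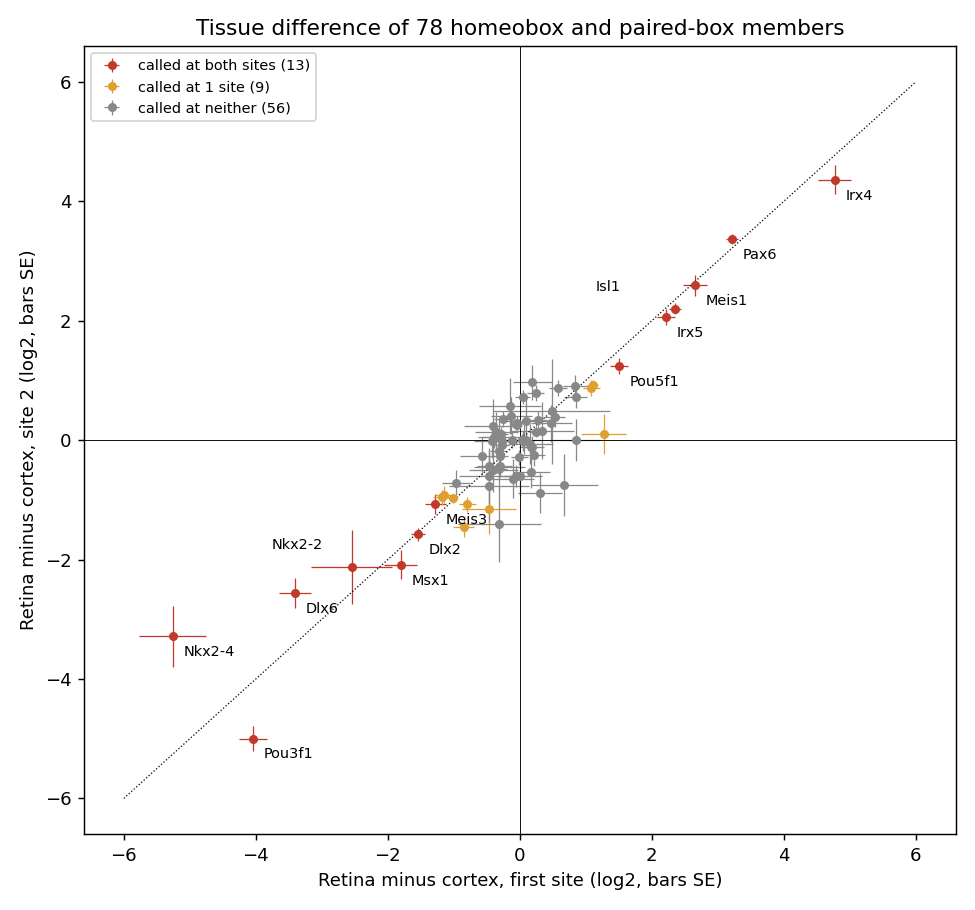
Retina minus cortex at the first site (horizontal axis, log2) and at site 2 (vertical axis, log2) for the 78 tested members, with SE bars and a dotted line of equal difference. Of the points, 13 were called at both sites, from Irx4 at the upper right to Pou3f1 and Nkx2-4 at the lower left, and 56 lie in the cloud around 0.

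Irx4, Pax6, Meis1, Isl1, Irx5 and Pou5f1 were the 6 members higher in retina at both sites. Irx4 is an Iroquois factor best known from the heart ventricle. On the first-site arrays Irx4 read 1.03, 0.921, 0.890, 0.811 and 0.873 in retina, against 0.0502, 0.0170, 0.0426, 0.0470 and 0.0234 in cortex. At site 2 Irx4 read 0.955, 0.855, 0.948, 0.986 and 0.940 in retina, against 0.0326, 0.0558, 0.0625, 0.0359 and 0.0483 in cortex. Retina arrays were thus all far above cortex arrays, and the cortex arrays lay around the 5th percentile of all intensities (0.0445). The difference of Irx4 was 4.77 (SE 0.25, adjusted p = 2.6e-12 in limma), or 27.3-fold, at the first site, and 4.36 (SE 0.25, adjusted p = 1.1e-11), or 20.5-fold, at site 2. The size of these folds depends on the unknown background step, because the cortex values are so low.

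Pax6 carries both a paired domain and a homeodomain, is required for eye formation, and persists in amacrine, horizontal and ganglion cells of the adult retina and in progenitors of the cortex. In retina at the first site Pax6 read 21.0, 21.2, 22.6, 23.0 and 20.3, against 2.23, 2.31, 2.28, 2.52 and 2.34 in cortex. At site 2 the values were 13.9, 16.3, 14.9, 13.1 and 14.2 in retina and 1.47, 1.53, 1.32, 1.60 and 1.11 in cortex. The groups did not overlap, and both tissues read lower at site 2. Pax6 differed by 3.21 (SE 0.09, adjusted p = 2.6e-16 in limma) and by 3.37 (SE 0.09, adjusted p = 1.2e-16), which is 9.25-fold and 10.3-fold. The other Pax members, Pax1, Pax3, Pax4, Pax8 and Pax9, were called at neither site. Pax3, a factor of the dorsal neural tube, averaged 5.61 in retina, against 5.49 in cortex at the first site and 4.66 in both at site 2.

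Isl1 is a LIM-homeodomain factor of ganglion cells, bipolar cells and cholinergic amacrine cells. It read 6.65, 6.65, 7.04, 6.56 and 5.63 in retina at the first site, against 1.30, 1.24, 1.21, 1.24 and 1.36 in cortex. At site 2 Isl1 read 5.66, 7.67, 5.47, 5.28 and 5.57 in retina, against 1.28, 1.42, 1.21, 1.34 and 1.16 in cortex. Every retina array was above every cortex array, and retina replicate 2 of site 2 was the high one of its group. Its difference was 2.36 (SE 0.09, adjusted p = 5.5e-14 in limma), or 5.12-fold, and 2.20 (SE 0.09, adjusted p = 1.5e-13), or 4.6-fold. Lhx2, the other LIM member, which is needed for the optic vesicle and selects cortical fate, went the other way. Lhx2 read 3.33, 3.55, 3.74, 3.63 and 3.50 in retina, against 6.92, 7.93, 6.74, 6.77 and 7.39 in cortex at the first site. At site 2 Lhx2 read 4.84, 4.15, 4.47, 5.18 and 4.72 in retina and 9.79, 8.56, 8.85, 8.46 and 10.2 in cortex. The groups were apart at both sites, but the difference lay at the 2-fold limit, -1.01 (SE 0.07, adjusted p = 5.5e-10 in limma) at the first site, where it was called, and -0.97 (SE 0.07, adjusted p = 9.6e-10) at site 2, where it was not. Leaving out retina replicate 1 (-0.99), cortex replicate 2 (-0.97) or cortex replicate 5 (-0.997) of the first site ended that call, and leaving out retina replicate 4 (-1.01) or cortex replicate 4 (-1.003) of site 2 made one there.

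Among the 10 TALE members, 5 were called higher and 1 lower in retina at the first site, and 3 higher and 1 lower at site 2. That is 50% and 10%, then 30% and 10%, of the group, against 11.9% and 13%, then 11.1% and 13.5%, of all probes. Meis1, a regulator of Pax6 in the developing eye, read 13.9, 11.8, 9.80, 12.5 and 12.1 in retina, against 1.80, 2.03, 1.83, 1.85 and 2.03 in cortex at the first site. At site 2 Meis1 read 9.98, 9.34, 9.10, 10.5 and 12.1 in retina, against 1.49, 1.53, 1.44, 1.29 and 3.19 in cortex. The groups did not overlap, and the cortex array at 3.19 was replicate 5. Meis1 differed by 2.65 (SE 0.18, adjusted p = 1.5e-10 in limma), or 6.27-fold, at the first site and by 2.59 (SE 0.18, adjusted p = 2.2e-10), or 6.03-fold, at site 2 (2.82 without that array).

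Its paralogs did not follow. Meis3, a factor of hindbrain patterning in frog and fish, was lower in retina: 0.587, 0.732, 0.948, 0.712 and 0.701 in retina against 1.74, 1.61, 1.87, 1.85 and 1.77 in cortex at the first site. At site 2 Meis3 read 0.543, 0.471, 0.572, 0.553 and 0.409 in retina and 1.18, 1.23, 1.29 and 0.681 in cortex, with cortex replicate 3 blank. Groups were apart at both sites, and the lowest cortex array was again replicate 5. The differences of Meis3 were -1.28 (SE 0.16, adjusted p = 1.2e-06 in limma) and -1.07 (SE 0.17, adjusted p = 2.1e-05), and the second was -0.98 without cortex replicate 4 and -0.996 without retina replicate 5 of site 2, which ends the call. Meis2, widely used in forebrain neurons, read 4.42 to 7.04 in retina and 6.31 to 8.17 in cortex at the first site. At site 2 it read 6.04 to 6.98 in retina and 7.43 to 9.93 in cortex. Meis2 was called at neither site (-0.31 and -0.48, SE 0.11 each).

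Irx5, which mouse retina needs for a class of cone bipolar cells, read 0.709, 0.744, 0.652, 0.668 and 0.653 in retina, against 0.140, 0.156, 0.135, 0.169 and 0.141 in cortex at the first site. At site 2 Irx5 read 0.608, 0.507, 0.483, 0.620 and 0.757 in retina and 0.158, 0.138, 0.138, 0.181 and 0.0995 in cortex. Retina was above cortex on every array, by 2.21 (SE 0.14, adjusted p = 4.3e-11 in limma), or 4.63-fold, and by 2.07 (SE 0.14, adjusted p = 1.2e-10), or 4.18-fold. In the RefSeq annotation Irx3 and Irx5 are neighbours with 0 protein-coding genes between them, and so are Irx2 and Irx4, with Irx1 on the other side of Irx2. Irx3 was called at the first site (1.08, SE 0.13) and stayed under 2-fold at site 2 (0.87, SE 0.13), with no overlap at either. For Irx3 quantile normalization made a call at site 2 (1.22), and log2(value + 0.1) ended the one at the first site (0.91). Neither Irx1 (-0.01 and -0.29) nor Irx2 (0.19 and 0.97, SE 0.30) was called beside Irx4 with all arrays. Irx2 lay near the 2-fold limit at site 2, where quantile normalization made a call. So did leaving out retina replicate 1, 3, 4 or 5 or cortex replicate 1 or 3 of that site. Retina replicate 2 there read 0.957 for Irx2, and the other retina arrays 0.268 to 0.309. Pbx2 and Pbx3, partners of Meis and Hox proteins, were each higher on every retina array than on every cortex array, at 1.66 and 0.772 for Pbx2 and 2.14 and 1.19 for Pbx3 (first-site means of retina and cortex). Pbx2 was called at the first site (1.10, SE 0.08) and not at site 2 (0.93, SE 0.08), and Pbx3 at neither (0.84 and 0.72, SE 0.18 each).

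Pou5f1, known as Oct4 for its part in pluripotent cells, was the other member higher in retina at both sites. It read 3.90, 4.12, 3.86, 3.71 and 3.71 in retina, against 1.27, 1.31, 1.43, 1.34 and 1.47 in cortex at the first site. At site 2 the values were 4.13, 3.25, 3.57, 4.41 and 4.21 in retina and 1.5, 1.42, 1.58, 1.36 and 2.62 in cortex. Groups stayed apart, with cortex replicate 5 of site 2 the closest to retina. Pou5f1 differed by 1.5 (SE 0.14, adjusted p = 1.2e-08 in limma) and 1.24 (SE 0.14, adjusted p = 1.8e-07), and by 1.41 at site 2 without that array. Whether this probe also binds transcripts of related sequence was not tested.

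**Figure D2:**
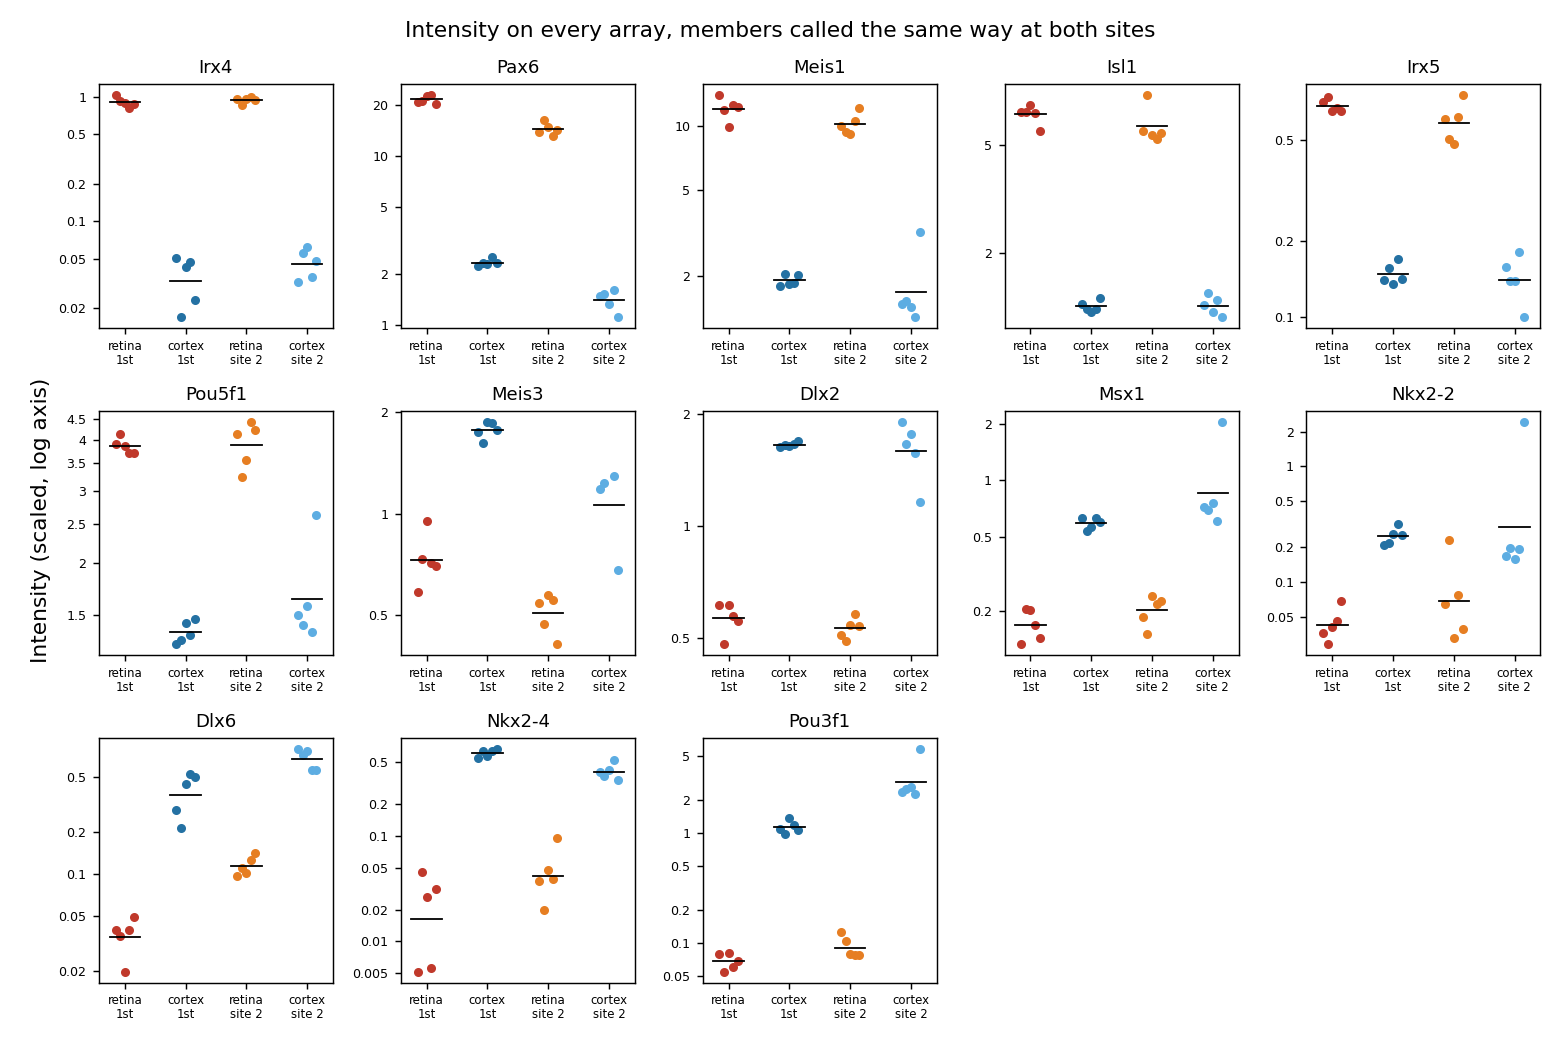
Intensity on each array (vertical log axis, scaled units) for the 13 members called the same way at both sites, ordered by mean difference. Each panel shows retina then cortex at the first site, then retina and cortex at site 2, with a bar at the geometric mean. Irx4 to Pou5f1 are higher in retina, Meis3 to Pou3f1 lower, and the only overlap within a site is Nkx2-2 at site 2.

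Members lower in retina at both sites were Pou3f1, Nkx2-4, Dlx6, Nkx2-2, Msx1, Dlx2 and Meis3. Pou3f1, a POU factor of Schwann cells and of cortical projection neurons, read 0.0795, 0.0550, 0.0817, 0.0607 and 0.0686 in retina, against 1.09, 0.971, 1.36, 1.18 and 1.07 in cortex at the first site. At site 2 Pou3f1 read 0.126, 0.104, 0.0795, 0.0769 and 0.0769 in retina, against 2.37, 2.51, 2.63, 2.26 and 5.81 in cortex. No retina array came near a cortex array, and the array at 5.81 was replicate 5. Its difference was -4.04 (SE 0.22, adjusted p = 4.9e-12 in limma), or 16.5-fold lower, at the first site and -5.00 (SE 0.22, adjusted p = 2.2e-13), or 31.9-fold lower, at site 2, and -4.75 there without replicate 5. The difference between the sites was -0.95 (adjusted p = 0.085 in limma), and -0.70 (adjusted p = 0.046 in limma) without replicate 5.

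Other POU members gave smaller differences. Pou5f2, a testis factor, was called lower at the first site (-1.14, SE 0.14) and missed 2-fold at site 2 (-0.91, SE 0.14, and -1.01 without cortex replicate 5). Its first-site call ended with quantile normalization (-0.90) and with log2(value + 0.1) (-0.84). Pou2f2, the Oct-2 of B cells, was called lower at site 2 (-1.45, SE 0.16) but not at the first site (-0.85, SE 0.16). Pou3f4, a factor of the inner ear and of forebrain, differed by -0.97 and -0.71 (SE 0.21 each) with no overlap. Both were under 2-fold with all arrays. Leaving out retina replicate 3 or 4, or cortex replicate 1, 2 or 5, of the first site made a call there. Pou6f1 and Pou2f3 were called at neither site.

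The Dlx, Nkx, Msx, En and Gbx members were put together by symbol alone, in a group named NKL here. Of these 18 members, 6 were called lower at the first site and 5 at site 2, with 0 called higher at either. That is 33.3% and 27.8% called lower, against 13% and 13.5% of all probes, of which 11.9% and 11.1% were called higher. Dlx2 and Dlx6 drive the formation of forebrain interneurons. Dlx2 read 0.616, 0.482, 0.615, 0.574 and 0.556 in retina, against 1.63, 1.65, 1.64, 1.66 and 1.69 in cortex at the first site. At site 2 Dlx2 read 0.511, 0.490, 0.543, 0.580 and 0.538 in retina and 1.90, 1.66, 1.77, 1.57 and 1.16 in cortex. The tissues were apart on all arrays, by -1.55 (SE 0.11, adjusted p = 1.7e-10 in limma), or 2.92-fold, and -1.58 (SE 0.11, adjusted p = 1.3e-10), or 2.99-fold.

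Dlx6 read 0.0397, 0.0356, 0.0198, 0.0396 and 0.0492 in retina, against 0.289, 0.215, 0.447, 0.528 and 0.501 in cortex at the first site. At site 2 Dlx6 read 0.0967, 0.111, 0.103, 0.126 and 0.143 in retina and 0.798, 0.729, 0.778, 0.562 and 0.563 in cortex. Both tissues read higher at site 2, and neither site had an overlap. Dlx6 differed by -3.41 (SE 0.25, adjusted p = 4.4e-10 in limma), or 10.6-fold, and by -2.56 (SE 0.25, adjusted p = 2.8e-08), or 5.91-fold. With values under the 25th percentile (0.194) raised to it, the first-site difference of Dlx6 was -0.95, under 2-fold. Its neighbour Dlx5, with 0 protein-coding genes between them, averaged 0.569 in retina, against 0.698 in cortex at the first site and was called at neither (-0.29 and -0.27, SE 0.11 each). Dlx6os2 was called at neither site (-0.04 and 0.29, SE 0.10 each), and which strand these probes read is not given in the sources used here. Outside the members, the paralog Dlx1 was 18.5-fold and 15.9-fold lower in retina. Lhx6, a LIM gene made in the same interneuron lineage, was 34.1-fold and 16.5-fold lower.

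Dlx3, a factor of placenta, teeth and hair, and Dlx4 were also called at neither site. Dlx3 read 9.31, 9.43, 10.9, 9.19 and 9.22 in retina, against 7.15, 8.64, 9.01, 7.81 and 8.12 in cortex at the first site. At site 2 Dlx3 read 5.76, 5.64, 5.40, 7.48 and 7.54 in retina and 4.24, 4.05, 3.92, 3.66 and 2.61 in cortex. Retina was the higher tissue without overlap at both sites, by 0.24 (SE 0.13) and 0.79 (SE 0.13), each under 2-fold.

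Nkx2-4 is a close relative of Nkx2-1 and is expressed in the hypothalamus. It read 0.00515, 0.0454, 0.0260, 0.00561 and 0.0316 in retina, against 0.548, 0.649, 0.576, 0.645 and 0.670 in cortex at the first site. At site 2 Nkx2-4 read 0.0374, 0.0197, 0.0477, 0.0394 and 0.0950 in retina and 0.406, 0.371, 0.425, 0.531 and 0.339 in cortex. Cortex arrays were all above retina arrays, which lay mostly under the 5th percentile of all intensities. The difference of -5.26 (SE 0.51, adjusted p = 2.8e-08 in limma) at the first site and -3.28 (SE 0.51, adjusted p = 1.4e-05) at site 2, 38.2-fold and 9.74-fold, therefore has an uncertain size. Of 8 genes of pituitary and hypothalamus measured, Gh, Cga, Avp and Hcrt were called lower in retina at both sites and 0 higher. Prl, Pomc, Lhb and Fshb were called at neither site, with Lhb at 0.69 at the first site and Fshb at 0.94 at site 2. At the first site the 8 genes summed to 1.47 to 1.76 in retina and 15.7 to 18.1 in cortex. At site 2 they summed to 1.78 to 2.05 in retina and 8.44 to 11.7 in cortex. Gh was the largest part of the cortex sums. Growth hormone, Gh, averaged 0.0601 in retina, against 11.4 in cortex at the first site, while prolactin, Prl, averaged 0.0358 in retina and 0.0522 in cortex. The part of such tissue in the Nkx2-4 result was not tested. Nkx2-1, of the hypothalamus and basal forebrain, averaged 0.411 in retina and 0.387 in cortex and was called at neither site (0.09 and 0.32, SE 0.41 each).

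Nkx2-2, a factor of the ventral neural tube and of the oligodendrocyte lineage, has 0 protein-coding genes between it and Nkx2-4. Nkx2-2 read 0.0367, 0.0292, 0.0414, 0.0467 and 0.0689 in retina, against 0.210, 0.220, 0.262, 0.319 and 0.254 in cortex at the first site. At site 2 it read 0.0651, 0.233, 0.0330, 0.0779 and 0.0395 in retina and 0.169, 0.197, 0.158, 0.192 and 2.42 in cortex. The groups overlapped at site 2, where retina replicate 2 stood above 4 cortex arrays and cortex replicate 5 far above the rest. Nkx2-2 differed by -2.55 (SE 0.62, adjusted p = 0.0014 in limma) at the first site and by -2.13 (SE 0.62, adjusted p = 0.0059) at site 2, where it was -1.38 without cortex replicate 5. With the floor at the 25th percentile both calls were lost (-0.37 and -0.68, adjusted p = 0.68 and 0.28).

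Msx1, a factor of the dorsal neural tube and of facial mesenchyme, read 0.133, 0.206, 0.204, 0.168 and 0.144 in retina, against 0.627, 0.534, 0.565, 0.624 and 0.600 in cortex at the first site. At site 2 Msx1 read 0.186, 0.152, 0.242, 0.218 and 0.226 in retina and 0.719, 0.690, 0.757, 0.607 and 2.04 in cortex. Retina was lower on all arrays, by -1.81 (SE 0.25, adjusted p = 2.8e-06 in limma) and -2.09 (SE 0.25, adjusted p = 4.3e-07), and by -1.77 at site 2 without cortex replicate 5, the array at 2.04. Its paralogs Msx2 (-0.31 and -0.44) and Msx3 (-0.57 and -0.27) were called at neither site. Of 9 genes of meninges and connective tissue, 8 were called lower in retina at the first site and 7 at site 2, among them Foxc1 at -2.34 and -2.43. The exception at both sites, Sparc, made up most of the summed intensity and averaged 19.5 in retina, against 14.9 in cortex, at the first site. The other 8 genes summed to 3.71 to 4.40 in retina and 14.9 to 16.4 in cortex at the first site. At site 2 they summed to 3.85 to 4.99 in retina, over the 4 arrays without a blank, and 13.2 to 17.5 in cortex. The part of such tissue in the Msx1 result was not tested.

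En1, of the midbrain and hindbrain, was called lower at the first site (-1.19, SE 0.13) and missed 2-fold at site 2 (-0.96, SE 0.13). The first-site call ended with quantile normalization (-0.94) and with log2(value + 0.1) (-0.86), and site 2 passed without cortex replicate 5 (-1.07), retina replicate 4 (-1.01) or retina replicate 5 (-1.01). En2 (0.53 and 0.38) and Gbx2, of the midbrain-hindbrain boundary and thalamus (0.05 and -0.02), were called at neither. Nkx1-2, Nkx2-5, Nkx2-6 and Nkx6-2 were not called either, with differences between -0.53 (Nkx2-5, site 2) and 0.58 (Nkx2-6, site 2).

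The start regions of 4 members are printed: Irx4 and Pax6, called higher in retina, and Nkx2-4 and Nkx2-2, neighbours called lower. They had the largest mean differences in each direction among members called at both sites with a start region at hand. Pou3f1 and Dlx6 had none. Each is the 250 bases before the transcription start in RefSeq, build GRCm38.p6, 5′ to 3′ on the gene's strand, with CG dinucleotides in capitals. The windows are chr13:73260247-73260496 (plus strand) for Irx4, chr2:105668646-105668895 (plus strand, the more upstream of 2 starts) for Pax6, chr2:147085346-147085595 (minus strand) for Nkx2-4 and chr2:147186403-147186652 (minus strand) for Nkx2-2.
Irx4: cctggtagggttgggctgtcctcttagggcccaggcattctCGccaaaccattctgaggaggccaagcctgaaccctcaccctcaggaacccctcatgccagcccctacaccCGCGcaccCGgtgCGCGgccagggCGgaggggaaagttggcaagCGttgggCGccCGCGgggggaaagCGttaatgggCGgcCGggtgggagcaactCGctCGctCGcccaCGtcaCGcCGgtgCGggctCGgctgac
Pax6: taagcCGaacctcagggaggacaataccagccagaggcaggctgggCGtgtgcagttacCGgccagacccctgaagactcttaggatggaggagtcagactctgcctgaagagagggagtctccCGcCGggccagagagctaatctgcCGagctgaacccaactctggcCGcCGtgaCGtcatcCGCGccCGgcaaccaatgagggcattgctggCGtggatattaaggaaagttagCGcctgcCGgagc
Nkx2-4: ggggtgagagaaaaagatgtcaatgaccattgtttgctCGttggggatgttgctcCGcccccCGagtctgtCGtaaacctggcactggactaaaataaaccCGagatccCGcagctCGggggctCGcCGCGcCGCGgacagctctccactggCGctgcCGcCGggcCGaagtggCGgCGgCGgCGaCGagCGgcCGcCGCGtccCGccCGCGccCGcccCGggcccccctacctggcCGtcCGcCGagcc
Nkx2-2: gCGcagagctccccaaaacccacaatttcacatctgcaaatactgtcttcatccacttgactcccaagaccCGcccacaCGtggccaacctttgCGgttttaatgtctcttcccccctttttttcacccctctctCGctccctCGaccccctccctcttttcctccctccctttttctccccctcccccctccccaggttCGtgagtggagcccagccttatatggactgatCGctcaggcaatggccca
The printed stretches hold 22, 15, 33 and 8 CG dinucleotides in that order. RefSeq windows of 300 bases, from 250 before to 50 after the start, were found for 54 of the 79 members (61 windows), with a median of 17 CG dinucleotides and 60.0% G and C. Over all 32851 windows the medians were 7 and 52.7%. The homeodomain core TAATTA was in 3 of the 61 windows (4.92%, against 5.29% of all windows), on either strand. TAATCC, the core read by Otx and Crx proteins, was in 2 (3.28%, against 7.06%), the windows of Isl1 and of 1 Pou5f1 start. TGACAG, the Meis core, was in 11 (18%, against 19.2%), and the octamer ATGCAAAT of POU proteins in 0 (against 1.74%). TATAAA on either strand was in 6 (9.84%, against 13.6%). None of these matches was taken as a binding site.

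Six3, needed to form the forebrain and the eye, was alike in both tissues at the first site and higher in retina at site 2. At site 2 Six3 read 15.1, 14.0, 15.3, 17.4 and 18.6 in retina and 11.6, 10.8, 9.79, 8.47 and 8.26 in cortex. At the first site it read 15.1, 12.6, 14.0, 14.3 and 17.5 in retina and 14.0, 15.6, 15.2, 13.8 and 12.4 in cortex. The groups were apart at site 2 and mixed at the first site. Retina minus cortex was 0.72 (SE 0.11) at site 2 and 0.04 (SE 0.11) at the first site, both under 2-fold, and the difference between the sites was 0.68 (adjusted p = 0.022 in limma, adjusted p = 0.061 with the replicate number as a block). Six2 (0.58 and 0.87) and Six4 (0.84 and 0.91) were higher on every retina array than on every cortex array at both sites without reaching 2-fold, and Six5 (-0.39 and 0.05) was called at neither.

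For no member did limma call a tissue difference that changed at least 2-fold between the sites, and 0.725% of all probes were called. With all arrays an adjusted p under 0.05 was reached by Six3 only. Without cortex replicate 5 of site 2, Pou2f2 (-0.73, adjusted p = 0.035 in limma) and Pou3f1 (-0.70, adjusted p = 0.046 in limma) reached it too, both under 2-fold. Cux1, a CUT factor that with Cux2 marks upper-layer cortical neurons, was called higher in retina at the first site (1.27, SE 0.34, adjusted p = 0.0033 in limma) and not at site 2 (0.10, SE 0.34). Cux1 read 0.913, 0.252, 0.159, 0.201 and 0.254 in retina, against 0.108, 0.102, 0.202, 0.125 and 0.0831 in cortex at the first site. At site 2 Cux1 read 0.649, 0.749, 0.873, 0.553 and 0.939 in retina and 0.637, 0.754, 0.655, 0.681 and 0.720 in cortex. Tissues overlapped at both sites, and the first-site call rested on retina replicate 1, without which the difference was 0.85. Cux2 read 0.173 to 0.345 in retina and 0.176 to 0.303 in cortex at the first site. At site 2 it read 0.276 to 0.362 in retina and 0.413 to 0.576 in cortex. Its difference was called at neither (-0.06 and -0.60, SE 0.18 each). Pitx3, of midbrain dopamine neurons and lens, was called lower in retina at site 2 (-1.07, SE 0.13) but not at the first site (-0.80, SE 0.13), with no overlap at either, and Pitx1 was called at neither.

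Hox genes made up 26 of the members, and 25 were tested. At the first site 0 of the 25 were called in either direction, at differences from -0.46 to 0.68, and their median difference was -0.04. At site 2 only Hoxa2, which patterns the hindbrain and second arch, was called, lower in retina (-1.16, SE 0.41, adjusted p = 0.021 in limma). Without cortex replicate 5 of site 2 Hoxa2 differed by -0.60, under 2-fold, and Hoxd11 was called lower in its place (-1.04, against -0.88 with all arrays). Of the 25 members, 11 had group means under the 25th percentile of all intensities in all 4 groups, such as Hoxa9, Hoxa10, Hoxa13, Hoxb4 and Hoxc9. In contrast, Hoxa3, Hoxb3, Hoxb5, Hoxb13 and Hoxc4 had every group mean above the median intensity of 0.937 in both tissues. Hoxb5 averaged 5.05 in retina, against 4.74 in cortex at the first site and 5.32 in retina and 5.30 in cortex at site 2, a difference of 0.09 and 0.01 (SE 0.10 each). Hoxb13, a factor of the tail end of the body, averaged 4.91 in retina, against 4.14 in cortex at the first site and 4.18 in retina and 3.80 in cortex at site 2. What these brighter Hox probes bind in tissues from the head was not tested. By cluster, the medians at the first site and site 2 were -0.31 and -0.55 for 8 Hoxa genes, -0.10 and 0.05 for 6 Hoxb, 0.12 and 0.14 for 6 Hoxc, and 0.30 and -0.25 for 5 Hoxd.

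**Figure D3:**
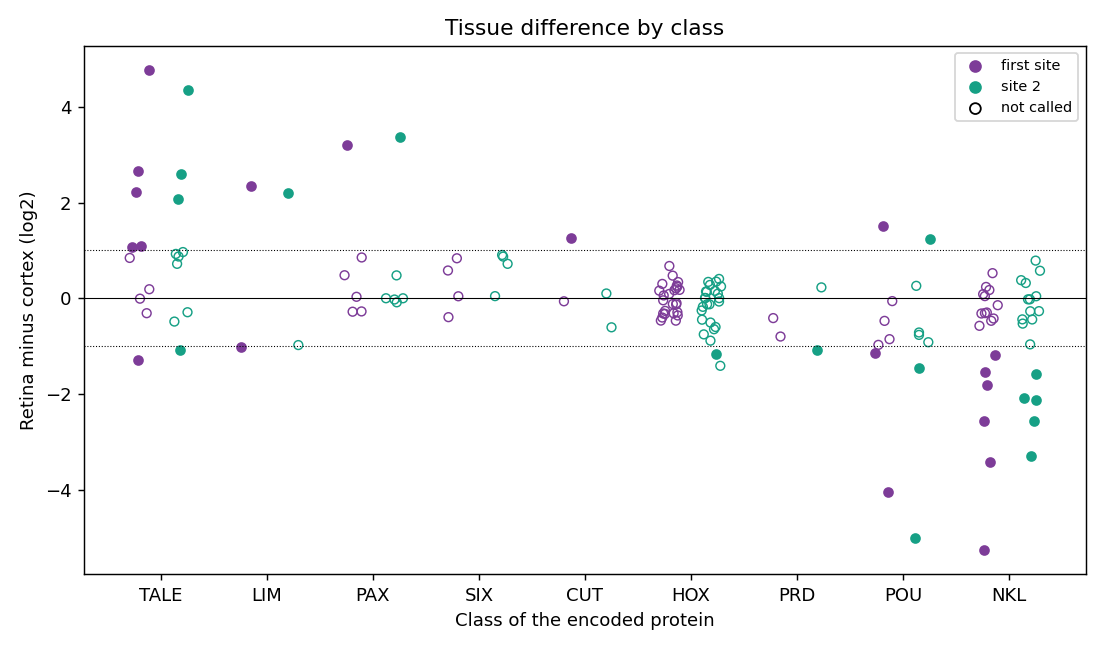
Retina minus cortex (vertical axis, log2) by class of the encoded protein, assigned from the gene symbol, at the first site (purple) and site 2 (green). Filled points were called and open ones not, and dotted lines mark 2-fold. TALE points reach 4.77, NKL points reach -5.26, and the 25 Hox genes lie between -1.41 (Hoxa5 at site 2, -0.52 without cortex replicate 5) and 0.68.

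Without a threshold on size, every retina array was above every cortex array for 13 members at the first site and below for 18, and for 17 and 16 at site 2. Over all probes the shares without overlap were 26.2% and 27.1% at the first site and 24% and 24.3% at site 2. Of the 13 members called at both sites, 12 had no overlap at either. The calls were made on the same arrays, so this adds no separate support. The 56 members called at neither site differed by -0.97 to 0.85 at the first site and by -1.41 to 0.97 at site 2. The largest of those, Hoxa5 at site 2 (-1.41, SE 0.63), missed on its adjusted p of 0.062 in limma and rested on cortex replicate 5, which read 3.95 where the other cortex arrays read 0.160 to 0.217. Without that array Hoxa5 differed by -0.52 (SE 0.25). In RNA of whole tissue, fewer cells of a type and less RNA per cell cannot be told apart.

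Other homeobox genes and cofactors were counted beside the members from lists written with earlier results of these data known. Of 45 other homeobox genes tested, 7 were called higher and 8 lower in retina at the first site, and 6 higher and 9 lower at site 2 (15.6% and 17.8%, then 13.3% and 20%, against 11.9% and 13%, then 11.1% and 13.5%, of all probes). Sebox averaged 4.18 in retina, against 0.0566 in cortex, at the first site, and Hmx1 2.70 in retina, against 0.0452 in cortex. With cortex so near the 5th percentile of all intensities (0.0445), the size of these differences is uncertain. Lhx6 (-5.09 and -4.05) and Dlx1 (-4.21 and -3.99) were called lower in retina at both sites. The 21 cofactors tested bind homeodomain proteins of several classes or the partners of such proteins. Of them 2 were called higher and 2 lower at the first site (9.52% each). At site 2 it was 2 higher and 4 lower (9.52% and 19%). Lmo4 (-2.06 and -2.25), itself a LIM protein, and Ldb2 (-1.79 and -1.73), which binds LIM domains, were called lower at both sites. Hipk3, a kinase of homeodomain proteins, was called higher at both (1.62 and 1.12). Among 7 genes of thalamus and striatum 3 were called higher and 2 lower at each site, and among 5 lens genes 3 higher and 0 lower.

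The same RNA pools gave different levels at the sites for part of the members. In retina 9 members were called higher at site 2 than at the first site and 0 lower (4.79% and 1.45% of all probes). In cortex 10 were called higher at site 2 and 1 lower (5.29% and 1.92%), and Cux1 and Irx2 were called in both tissues. The median of site 2 minus the first site was 0.28 in retina and 0.32 in cortex over the members, against 0.02 and 0.08 over all probes tested. For the 31 members with a mean under the 25th percentile of all intensities the median shift was 0.54 in retina and 0.56 in cortex, and for the 2485 probes as dim it was 0.40 and 0.49. For the other 47 members it was 0.01 and 0.04, and for the 7854 other probes -0.07 and -0.03. Cux1 averaged 0.739 at site 2 and 0.285 at the first site in retina, and 0.688 at site 2 and 0.118 at the first site in cortex, a shift of 1.38 and 2.54. Without cortex replicate 5 Hoxa2 was not called between sites in cortex and Hoxa11, Nkx1-2 and Pou5f2 were, and the shift of Hoxa5 was 1.03 (1.91 with it). Dlx3 was the only member called lower at site 2, with cortex at 3.65 there and 8.12 at the first site (-1.16, SE 0.13, adjusted p = 9e-07 in limma). Irx2 averaged 0.367 at site 2 and 0.105 at the first site in retina, and 0.187 at site 2 and 0.0924 at the first site in cortex.

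**Figure D4:**
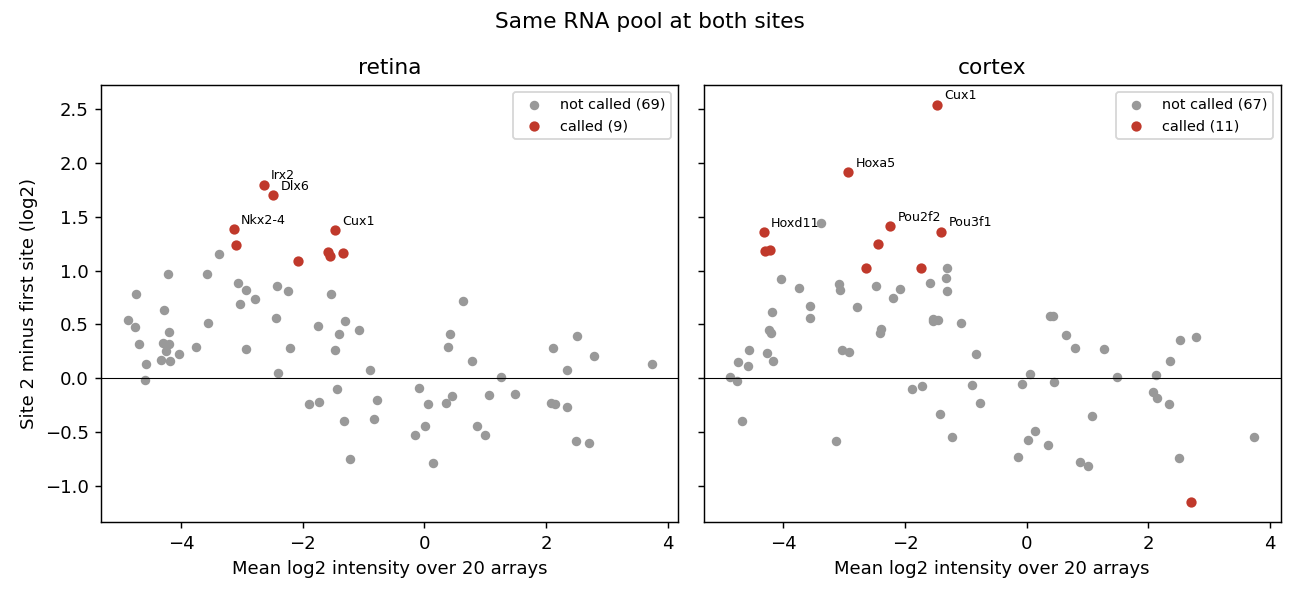
Site 2 minus first site (vertical axis, log2) of the same RNA pool against mean log2 intensity over 20 arrays (horizontal axis), for 78 members in retina (left) and cortex (right). Called members are red, 9 in retina and 11 in cortex, of which 4 and 6 are dim (mean under the 25th percentile), and 9 and 10 lie above 0.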

How the data were processed

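The authors deposited 1 intensity per probe and array on a linear scale, for 10500 probes on 20 arrays. Labelling used biotin, per the labels' protocols. How the authors scanned, corrected and scaled the arrays is not stated in the sources at hand. The values appear background-subtracted (143 at or below 0) and scaled per array, and 2080 were blank. No detection flag was used, and 0 pairs of arrays held identical values. The number of arrays limits the precision.

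Probes were named from the platform annotation, in which 9378 had 1 symbol, 8 several and 1114 none. All 79 members matched the RefSeq table of GRCm38.p6, which changed 0 symbols. Values above 0 were put on the log2 scale with no further scaling, because array medians differed by at most 0.0594 log2. A probe was tested with at least 3 values in each group of 5, which kept 10339 probes. limma 3.58.1 in R 4.3.3 fitted 4 group means to all arrays (16 residual and 2.16 prior degrees of freedom), and p-values were adjusted by Benjamini-Hochberg over all tested probes. Where an array was blank, the fit left it out. A call needs an adjusted p under 0.05 and at least 2-fold. The fit was tested on simulated data. Tables and plots were made with Python 3.11.15.

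Values on every array are given for members called the same way at both sites, the 5 with the highest mean, and a fixed list of eye and forebrain factors (19 in all, with ranges for Meis2 and Cux2). Other members called at 1 site were named after their values were seen. The members and lists were chosen with earlier results of these data known. The replicate numbers did not pair the arrays: same-numbered arrays deviated together with correlations of -0.11 to 0.071 over 30 pairs. Alternatives covered the scaling, floors, a pseudocount of 0.1, filters, the samples in the fit, the replicate block, limma's treat at 1.2-fold and leaving out each array. Averaging a gene's probes changes nothing for members, each with 1 probe.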

Additional observations from a re-analysis of the deposited data

Results flagged for a closer look

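Among 76 groups of arrays of the 19 members given in full, 9 held an array far from the others, judged by its gap to the nearest array as a share of the group's range, and chance flags about 1 in 20 groups. In 6 of the 9 the array was cortex replicate 5 of site 2. It was the highest array for Nkx2-2 (share 0.918), Pou3f1 (0.838), Msx1 (0.818), Meis1 (0.807) and Pou5f1 (0.773), and the lowest for Meis3 (0.855). The other 3 were retina replicate 3 of the first site for Dlx3 (0.842), retina replicate 2 of site 2 for Isl1 (0.815) and retina replicate 1 of the first site for Cux1 (0.733). The retina-minus-cortex difference of Six3 was larger at site 2 than at the first site by 0.68 log2 (adjusted p = 0.022 in limma over all probes), with every retina array above every cortex array at site 2 and an overlap at the first site.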

How the results depend on the processing

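The alternatives gave 1587 values for 53 results of members that were given in full or called at a site in the main fit. Of these values 1552 kept their side of the threshold, 25 lost a call, 8 gained one and 2 (Six3 between the sites) lost significance. Of values with a call 0 turned round, while the direction of values called in neither fit was not counted. Uncalled members outside that set also gained calls, such as Irx2, Six2 and Six4 at site 2 after quantile normalization. After quantile normalization 10 members were called higher in retina at site 2 instead of 6, with 15 of the 16 members called there shared, 1 member (Pou3f1) had a tissue difference that changed between the sites, and 4 members were called between sites in retina and 4 in cortex, instead of 9 and 11. With a floor at the 25th percentile these 3 counts were 2 (Pou2f2 and Pou3f1), 4 and 4, and with log2(value + 0.1) they were 1 (Pou3f1), 2 and 5, and the cause was not tested. Leaving out each array in turn gave 8 to 10 members higher and 9 to 11 lower in retina at the first site, 6 to 7 higher and 10 to 12 lower at site 2, 7 to 11 called between sites in retina, 9 to 13 in cortex, and 0 with a site-dependent tissue difference. Without cortex replicate 5 of site 2 it was 6 higher and 12 lower at site 2. With the replicate number as a block the counts were 9 and 10 at the first site, 6 and 10 at site 2, 0 for the site-dependent difference, and 9 and 11 between sites, and the arrays correlated best with their own number in 4 of 20 cases. The block moved 1 named result past its threshold, that of Six3 between the sites (adjusted p = 0.061 in limma), which limma's treat also ended (adjusted p = 0.4). Cux1 at the first site was also under 2-fold with the floor at the 25th percentile (0.60) and with log2(value + 0.1) (0.85). Members near the background of the arrays have folds whose size depends on a background step that could not be checked.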
